A study of Mus musculus with 20 samples.

Results

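The nuclear-encoded genes of the respiratory chain and ATP synthase were followed in RNA-seq libraries of mouse hippocampus. Members were all genes whose symbol begins with Ndufa, Ndufb, Ndufc, Ndufs, Ndufv, Uqcr, Cox4 to Cox8, Sdha to Sdhd or Atp5, without pseudogenes, and whose mean over the 20 libraries was at least 1 CPM (counts scaled to library size). Of 24513 genes in the files, 96 matched by symbol and 92 reached that level. Members were thus chosen by symbol and mean CPM, and the levels below are a description. Nearest above it were Cox4i2 at 1.005 and Cox7a1 at 1.10 CPM, and nearest below it were Cox8b at 0.979 and Cox7b2 at 0.164 CPM. The other 2 matching genes left out were Cox8c, with 0 counts in every library, which allows up to 0.0885 CPM in the shallowest one (3 counts, counting error only), and Ndufs5, with 1 count in 1 library and 0 in the other 19. RefSeq lists a pseudogene of Ndufs5, Ndufs5-ps, whose part in this count was not tested.

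The libraries came from polyadenylated RNA of the hippocampus of male C57BL/6J mice, all 9 months old, with 5 libraries for each of 4 genotypes. WT had neither change, PS19 carried a human tau transgene, C3aR KO lacked the complement receptor by its label, and PS19/C3aR KO had both. The PS19 transgene is a mutant form of tau found in frontotemporal dementia, under the prion promoter of the mouse. C3aR is the receptor for complement fragment C3a, and its gene is C3ar1. Nothing in the labels ties a library to its own animal, so p-values measure the spread between libraries, which may be technical.

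The respiratory chain of the inner mitochondrial membrane passes electrons from NADH through complex I, or from succinate through complex II, to complex III, cytochrome c, complex IV and oxygen. Complexes I, III and IV pump protons, and ATP synthase, often called complex V, uses the gradient to make ATP. Most subunits are encoded in the nucleus and imported, while the mitochondrial genome encodes the central membrane subunits of every complex except complex II; the mitochondrially encoded genes were not analysed here. Neurons rely on this pathway to fuel synaptic transmission and ion pumping.

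By role, the 92 members held 37 subunits and 7 assembly factors of complex I, 4 subunits and 4 assembly factors of complex II, 8 subunits of complex III, 14 of complex IV and 15 of complex V. A further 3 share a complex's name without being core subunits: Cox7a2l, a factor in supercomplex assembly, and Atp5s and Atp5sl. Ndufa4 was counted by its name with complex I, although it has since been assigned to complex IV. The members lie on 19 chromosomes, and positions below are from RefSeq on GRCm38.p6 (mm10). RefSeq names pseudogenes of 8 members, Cox5b and Atp5k among the genes described below, and the authors' counting could split reads between such copies.

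Gene counts per library ran from 33885800 to 47828100, of which members took 0.846 to 0.953%. C3ar1 was higher in the libraries labelled C3aR KO (14.1 to 18.0 CPM) and PS19/C3aR KO (14.96 to 18.7) than in WT (1.73 to 2.42) or PS19 (4.98 to 13.7). A loss of the transcript would give the other direction. Counts summed over the exons of a gene cannot show which exons were read, so whether the receptor was lost was not tested. Directions are given for libraries as labelled. Pan-neuronal markers were lower and glial markers higher in PS19 than in WT. The mean log2 CPM of 10 neuronal markers was 8.93 to 9.04 in WT and 8.79 to 8.92 in PS19, with no overlap, and 2 of the 10 fell (Rbfox3 and Syn1). All 7 excitatory neuron markers had log2 fold changes below 0 (median -0.26), as had 3 of 7 inhibitory ones (median 0.015). The summed CPM of 8 microglial markers was 323 to 366 in WT and 483 to 1047 in PS19, and that of 7 astrocyte markers 2073 to 2311 and 2880 to 5430. All 8 and all 7 rose, and 2 of 6 oligodendrocyte markers did. In whole tissue, fewer cells of a type and less RNA per cell cannot be told apart. Choroid plexus markers varied within every group, with sums of 32.8 to 2091 CPM in WT and 72.6 to 4411 in PS19. Of 5 blood markers, 4 were at 0 in every library. The reason was not tested, and no statement on blood content is drawn from this list. Rn45s, the ribosomal RNA precursor, took 2.85 to 4.48% of counts in WT and 0.873 to 3.65% in PS19. It took 0.923 to 4.34% in C3aR KO and 1.04 to 3.03% in PS19/C3aR KO. The means were 3.59% in WT, 1.85% in PS19, 1.92% in C3aR KO and 2.31% in PS19/C3aR KO.

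To compare levels between genes, CPM were divided by transcript length, since members are short, with a median of 810 nt against 2725 nt over all genes tested. Per kilobase of transcript, Atp5b, the catalytic beta subunit of ATP synthase, had the highest level at 514 CPM per kb. It was followed by the complex IV subunits Cox8a at 451, Cox4i1 at 390 and Cox6a1 at 334, and by Ndufa4 at 303. Among subunits the median level was 74.99 CPM per kb in complex I, 67.7 in complex II, 125 in complex III, 141 in complex IV and 144 in complex V. Assembly factors, which build the complexes and then leave, were lower, with medians of 12.7 for complex I and 10.03 for complex II. The lowest member was Sdhaf3, a complex II assembly factor, at 0.982 CPM per kb.

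**Figure D1:**
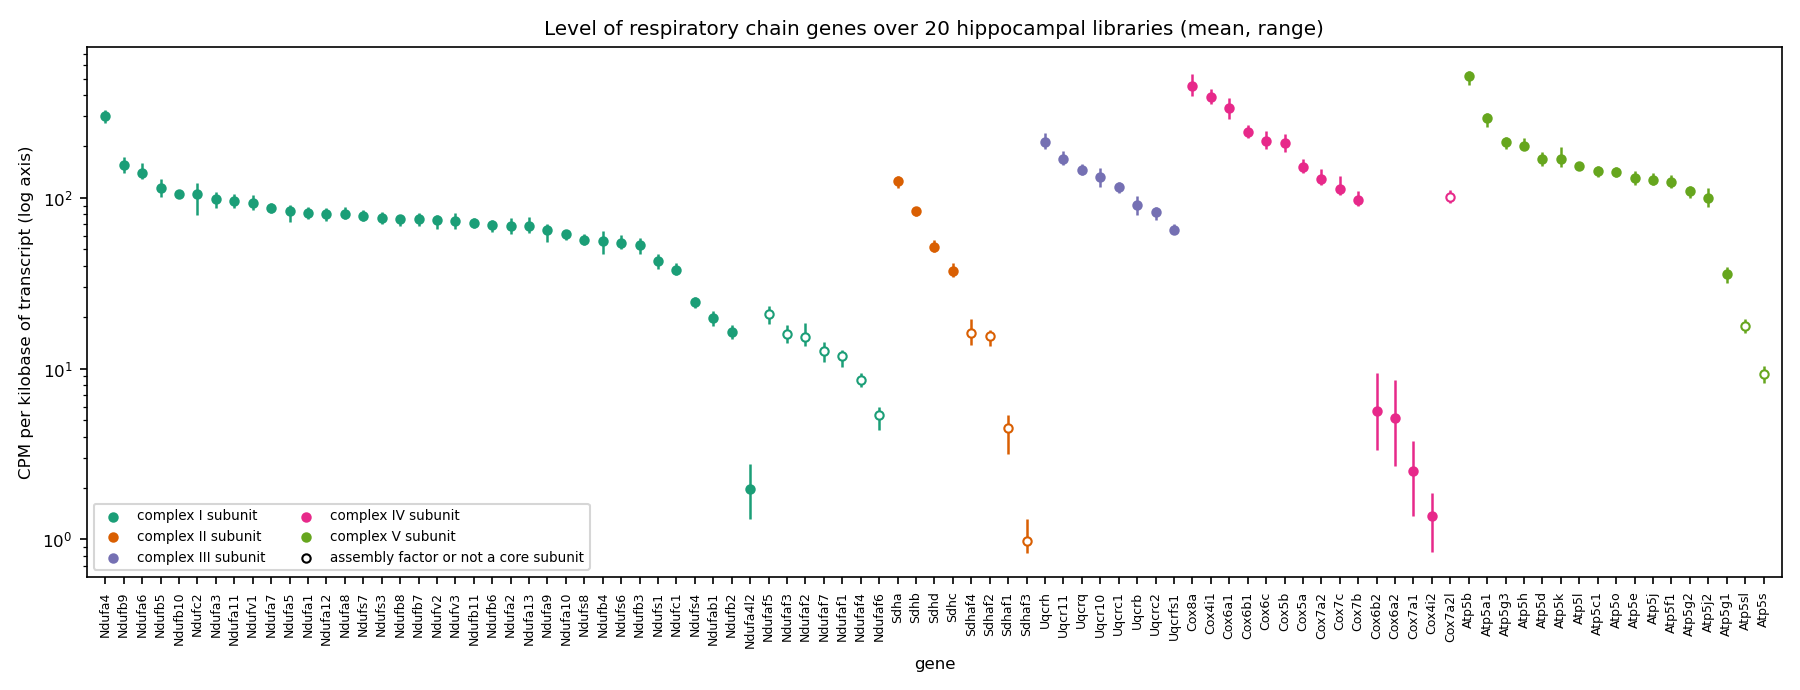
Mean level of members over 20 libraries in CPM per kilobase of transcript on a log axis (points), with the lowest and highest library (lines), by complex. Subunits of complexes IV and V have the highest levels, led by Atp5b at 514, and assembly factors (open points) lie lower.

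Several subunits come as a common and a tissue-restricted isoform, and in hippocampus the common form made up nearly all of each pair. Cox4i2, the isoform linked to lung and low oxygen, gave 0.351% of the CPM per kilobase of its pair with Cox4i1. All shares here are of levels divided by transcript length, which differs between the genes of a pair. The muscle isoforms Cox6a2 and Cox7a1 gave 1.51% and 1.90% of their pairs with Cox6a1 and Cox7a2. Cox6b2, best known from testis, gave 2.29% of its pair with Cox6b1. Ndufa4l2, a gene induced by low oxygen, gave 0.646% of its pair with Ndufa4. Cox8b, another muscle isoform, gave 0.599% of its pair with Cox8a, and Cox7b2 gave 0.307% of its pair with Cox7b. The 3 genes for the c ring of ATP synthase were shared out differently: Atp5g3 gave 59.3%, Atp5g2 30.7% and Atp5g1 9.996% of their sum. Before division by length their means were 151.8, 64.2 and 95.3 CPM, so the order of Atp5g1 and Atp5g2 turns with the division by length, the Atp5g1 transcripts being long (median 2675.5 nt). These shares are means over 20 libraries.

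Cox8b, just below the level that made a gene a member, was uneven between libraries. It reached 0.550 to 2.79 CPM in the 11 libraries whose mean log2 CPM of choroid plexus markers was 4.12 or higher. In the 9 others it was 0.144 to 0.309 CPM. The part of choroid plexus tissue in its level was not tested further.

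**Figure D2:**
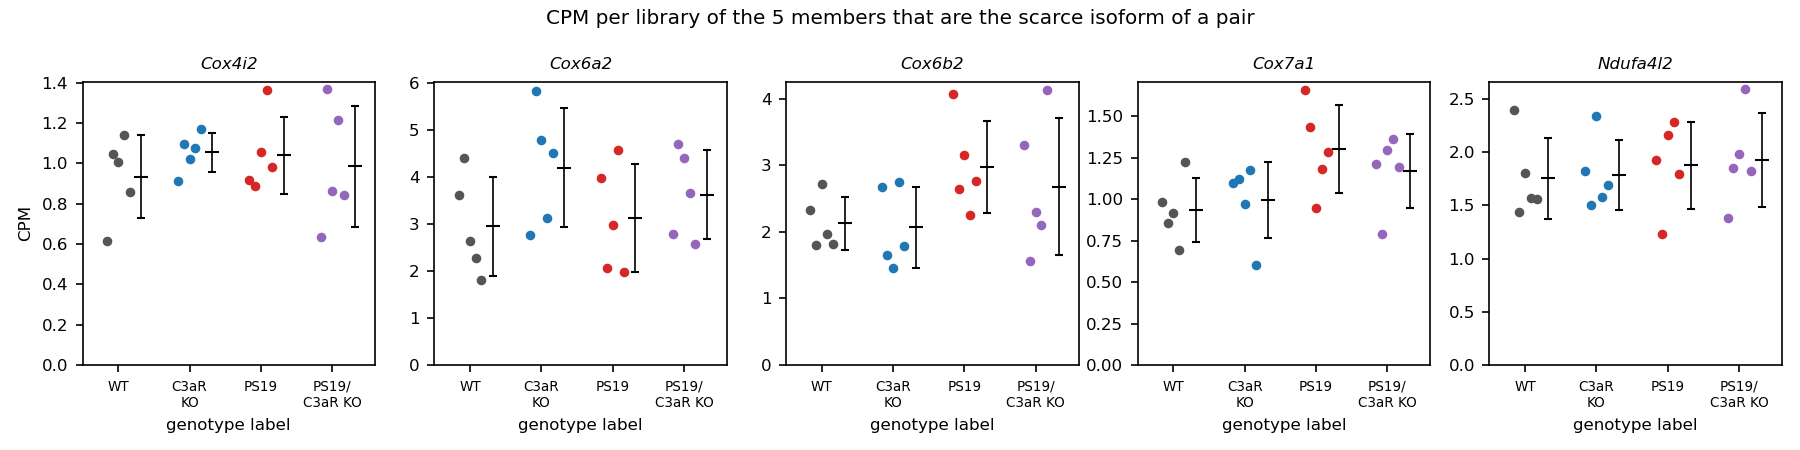
CPM of the 5 members that are the scarce isoform of a pair, 1 point per library, with mean and SD of 5 libraries per genotype label. Cox6a2 has the highest single value, 5.84 CPM, and the PS19 and WT libraries overlap for each gene.

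Members varied little between libraries of 1 genotype. Their median within-group SD was 0.068 log2 units, against 0.156 over all genes tested, which are also less abundant (median log2 CPM 6.09 against 4.20). The least variable was Cox7a2l with an SD of 0.042, and the most variable were the scarce isoforms Cox6a2 at 0.47 and Cox6b2 at 0.39. Log2 fold changes of members between PS19 and WT had a median standard error of 0.046, and those of all genes 0.097, so smaller differences can be resolved here than for a typical gene.

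In PS19 against WT, 5 members fell and none rose. Among them were Ndufa5 and Ndufb9 of complex I, the complex II assembly factor Sdhaf4, and Cox6c of complex IV, which were lower by 0.14 to 0.27 on the log2 scale. A call means an adjusted p (Benjamini-Hochberg, over all genes) below 0.05 in edgeR's quasi-likelihood test. These 5 are 5.43% of the 92 members, against 10.8% of all 16657 genes called in either direction, 3.32% called lower and 7.5% called higher. At an unadjusted p below 0.05 there were 19 lower (20.7%) and 3 higher members, against 10.5% of all genes lower, 14.2% higher and 24.8% in either direction. The log2 fold change was below 0 for 70 of 92 members and for 51.7% of all genes, with medians of -0.040 and -0.0068. The share called lower was near the background, and the members' differences were small and mostly below 0. DESeq2 called 9 members, all lower, and 4.48% of all genes lower.

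Ndufa5, an accessory subunit of the matrix arm of complex I at chr6:24518662-24527690, measured 54.0, 48.3, 48.6, 51.2 and 52.7 CPM in WT. In PS19 it measured 46.2, 43.3, 46.9, 48.2 and 45.9 CPM, all below the lowest WT library. It fell by 0.14 on the log2 scale (SE 0.045, edgeR adjusted p = 0.0436). Ndufb9, an accessory subunit of the membrane arm at chr15:58933801-58939516, measured 117, 106, 115, 122 and 111 CPM in WT and 106, 100.5, 100.8, 101.2 and 107 in PS19. All PS19 libraries but 1 lay below the WT range, and it fell by 0.15 (SE 0.047, edgeR adjusted p = 0.0452). Of its exonic bases 19.5% are shared with Gm49356, a coding gene on the same strand, which a strand setting cannot separate.

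Of the 37 complex I subunits 27 were below 0, with a median of -0.041. Ndufb4 and Ndufb3 also had every PS19 library below every WT library, without reaching the adjusted threshold (edgeR adjusted p = 0.0888 and 0.0817). With Ndufa5 that makes 3 members whose groups lay apart in this direction, against 3.11% of all genes. Ndufv1, which takes electrons from NADH, had a log2 fold change of -0.087, and Ndufs1, the largest core subunit, -0.070. Ndufc2 had the highest value among complex I subunits, 0.21 (SE 0.094, edgeR adjusted p = 0.165), and its WT libraries ran from 46.0 to 63.2 CPM. The 7 complex I assembly factors had a median of -0.069, and none was called, with 2 of them lower at an unadjusted p below 0.05.

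Sdhaf4 helps the flavin-bearing subunit Sdha join complex II, and its gene lies at chr1:23995939-24005640. It measured 12.5, 12.6, 11.5, 12.01 and 13.3 CPM in WT and 12.4, 9.59, 9.38, 9.88 and 10.2 in PS19. Replicate 1 of PS19 lay within the WT range and the other 4 below it. It fell by 0.27 (SE 0.075, edgeR adjusted p = 0.0258). No complex II subunit was called: Sdha measured -0.068, Sdhb -0.022, Sdhc 0.10 and Sdhd 0.014 on the log2 scale, and their median was -0.0043.

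All 8 complex III subunits were below 0, with a median of -0.074, and none was called, with 2 of them lower at an unadjusted p below 0.05. Uqcrc1, a matrix-facing core protein, measured -0.090 (SE 0.034, edgeR adjusted p = 0.0969), and Uqcrfs1, the Rieske iron-sulphur protein, -0.079. In complex IV 10 of 14 subunits were below 0, with a median of -0.056. Cox6c, a small accessory subunit at chr15:35931976-35938246, measured 132, 139, 125, 139 and 140.2 CPM in WT and 127, 118, 117, 119 and 124 in PS19. The groups overlapped by PS19 replicate 1 alone, and it fell by 0.16 (SE 0.051, edgeR adjusted p = 0.04998, at the threshold). Cox6a1 and Cox8a had like values, -0.15 each, and were not called here (edgeR adjusted p = 0.0541 and 0.0841). The scarce isoforms Cox6b2 and Cox7a1 had the highest values of all members, 0.49 and 0.48, with standard errors of 0.24 and 0.21 (edgeR adjusted p = 0.224 and 0.150). Cox6b2 measured 1.80 to 2.73 CPM in WT and 2.25 to 4.07 in PS19, and Cox7a1 0.691 to 1.22 and 0.949 to 1.66.

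In complex V 13 of 15 subunits were below 0 and none was called, with 2 lower at an unadjusted p below 0.05. The catalytic pair Atp5a1 and Atp5b measured -0.083 and -0.089 on the log2 scale, with 946 to 1036 CPM of Atp5b in WT and 876 to 976 in PS19. The median of complex V was -0.032. Cox7a2l, Atp5s and Atp5sl had a median of -0.054.

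**Figure D3:**
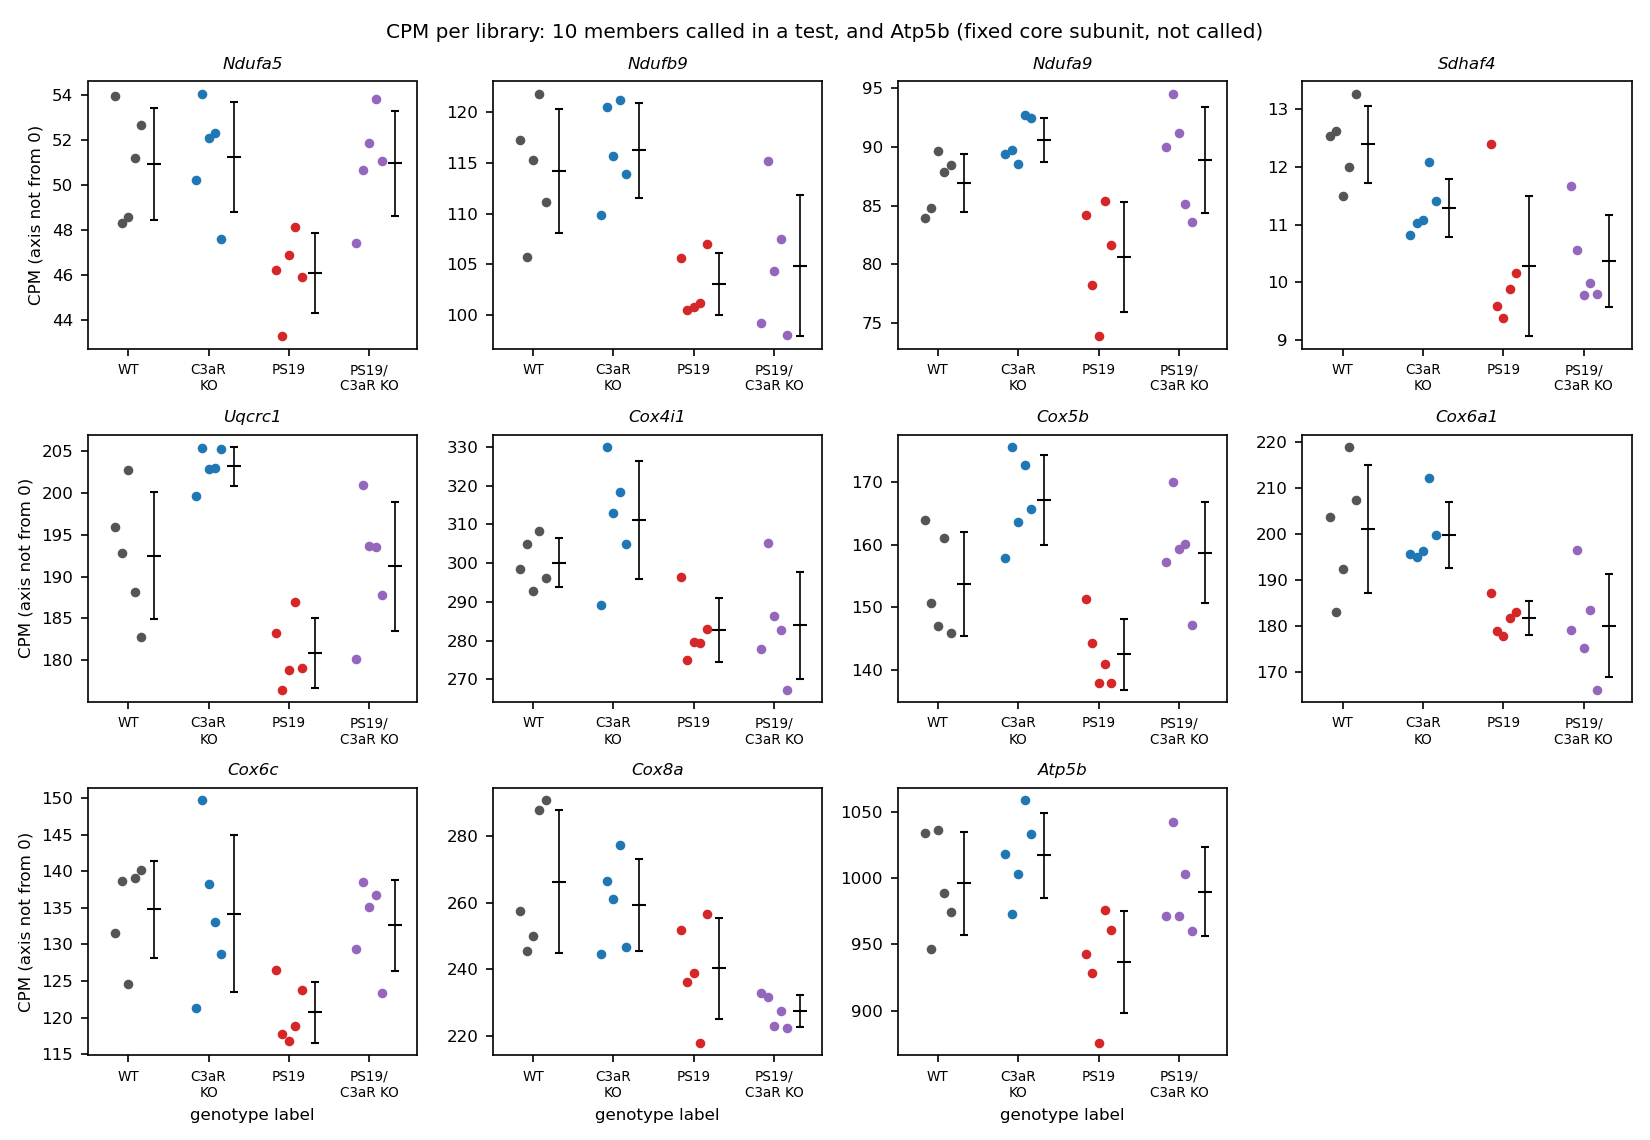
CPM per library of 10 members called in at least 1 test and of Atp5b, which was not called, with mean and SD of 5 libraries per genotype label; axes do not start at 0. The PS19 libraries are the low group for Ndufa5, Cox5b and Cox6c, while Cox8a has its lowest mean in PS19/C3aR KO, whose libraries run from 222 to 233 CPM.

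The count of 5 moved with single libraries and with covariates. It was 0 without WT replicate 1, WT replicate 5 or PS19 replicate 3. It was 1 without WT replicate 4, C3aR KO replicate 3, PS19 replicate 1, PS19 replicate 2 or PS19/C3aR KO replicate 3. It was 2 without C3aR KO replicate 4, C3aR KO replicate 5 or PS19 replicate 4, and 3 without WT replicate 3, C3aR KO replicate 1, PS19 replicate 5 or PS19/C3aR KO replicate 4. The 5 genes were lower in PS19 in every one of these fits. With the neuronal marker score as a covariate no member was called, the median over all members was 0.0053 and 17 genes of all tested were called. With the Rn45s share as a covariate no member was called, while the members' median was -0.061.

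**Figure D4:**
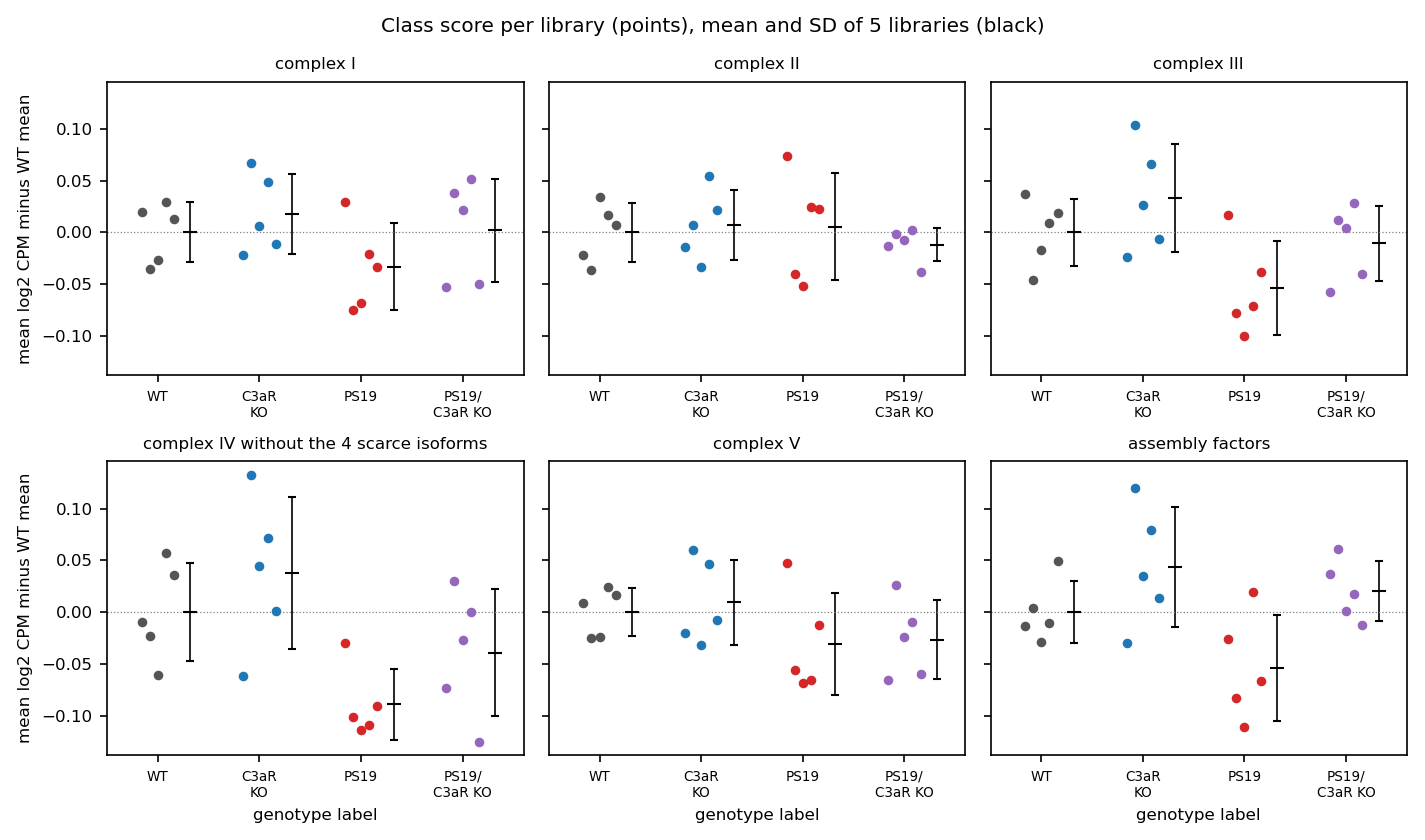
Mean log2 CPM of each class minus its WT mean, 1 point per library, with mean and SD of 5 libraries per genotype label. In complex IV without its 4 scarce isoforms, left out after their values were seen, the PS19 libraries run from -0.114 to -0.030. They lie below the WT mean but overlap the WT libraries, at -0.060 to 0.057. The score of all 14 complex IV subunits is not drawn. The complex II groups overlap throughout.

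A score was also taken as the mean log2 CPM over the genes of a class. The complex III score was -0.054 ± 0.045 log2 units in PS19 relative to WT, whose SD was 0.033 (SD, n = 5). The scores of complexes I, II and V in PS19 were -0.034 ± 0.042, 0.0054 ± 0.052 and -0.031 ± 0.049. With all 14 subunits the complex IV score was 0.019 ± 0.075, above 0. For complex IV, leaving out the 4 scarce isoforms after their values were seen, it was -0.089 ± 0.034 against a WT SD of 0.047. Within PS19, replicate 1 had the highest score of complexes I, II, III, V and this complex IV set. The summed CPM of the 14 complex IV subunits was 1460 to 1594 in WT and 1393 to 1484 in PS19, with overlap.

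In the libraries labelled C3aR KO no member was called against WT, where 0.06% of all genes were called. At an unadjusted p below 0.05 there were 4 members, against 6% of all genes, and DESeq2 called none, with 0.28% of all genes. The members' median was 0.022, with 27 of 92 below 0 against 50.9% of all genes. Cox5b, a subunit on the matrix side of complex IV, measured 164, 151, 147, 161 and 146 CPM in WT and 158, 176, 164, 173 and 166 in C3aR KO, with overlap (0.12, SE 0.045, edgeR adjusted p = 0.681). Uqcrc1 had 0.078 and Atp5k, a subunit at the dimer interface of ATP synthase, 0.10, with like overlap. Sdhaf1, a complex II assembly factor, had 0.23 (SE 0.11), and 69.6% of its exonic bases are shared with another coding gene. Cox7a2l was the only member whose groups lay apart: 114 to 122 CPM in WT and 107 to 113 in C3aR KO (-0.080, edgeR adjusted p = 0.781), against 0.54% of all genes apart in this direction.

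Against PS19, the libraries labelled PS19/C3aR KO had higher values for most members, yet none was called, where 0.252% of all genes were called. At an unadjusted p below 0.05 there were 17 higher members (18.5%) and 1 lower, against 5.6% of all genes higher, 8.91% lower and 14.5% in either direction. Glial markers had lower values: all 8 microglial markers were lower at an unadjusted p below 0.05 (median -0.74), as were 6 of 7 astrocyte markers (median -0.20) and 4 of 6 oligodendrocyte markers (median -0.31), with none called. Of the 10 neuronal markers 2 were below 0 (median 0.044) and none passed at that p. The narrower neuronal lists differed: 4 of 7 excitatory markers were below 0 (median -0.063) and 1 of 7 inhibitory markers (median 0.11). The part of these cell types in the members' values was not tested. The median was 0.033, with 28 of 92 below 0 against 51.3% of all genes. Leaving out PS19/C3aR KO replicate 1 gave 1 call. Cox5b measured 157, 169.9, 159, 160.03 and 147 CPM against 138 to 151 in PS19 (0.16, edgeR adjusted p = 0.112).

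Of the complex I subunits in this comparison, Ndufb4 had 0.19 and Ndufa9, which sits where the matrix and membrane arms meet, 0.14. Uqcrb of complex III had 0.18 (edgeR adjusted p = 0.126). The 7 complex I assembly factors were all above 0, with a median of 0.074. Ndufaf5, one of them, measured 24.2 to 25.6 CPM against 21.2 to 24.0 in PS19, with no overlap, where 0.997% of all genes lay apart in this direction. Atp5e, the epsilon subunit of the ATP synthase stalk, went the other way, at 49.98 to 54.6 CPM against 53.9 to 60.1 in PS19. DESeq2, in place of edgeR, called 6 members higher here, which included Cox5b, Ndufb4, Ndufa9 and Uqcrb, and 0.776% of all genes higher.

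Against C3aR KO, the libraries labelled PS19/C3aR KO had lower values for most members, and none was called, where 0.006% of all genes were called. At an unadjusted p below 0.05 there were 8 members (8.70%), all lower, against 3.74% of all genes lower and 9.71% in either direction. All 10 neuronal markers were below 0 here (median -0.11), 4 of them at an unadjusted p below 0.05, and all 8 microglial (median 0.69) and 3 of 7 astrocyte markers (median 0.12) were higher at that p, with none called. Their part in the members' values was not tested either. The median was -0.026, with 72 of 92 below 0 against 50.6% of all genes. Cox8a measured 244, 267, 261, 277 and 247 CPM in C3aR KO and 233, 231, 223, 227 and 222 in PS19/C3aR KO, with no overlap (-0.19, SE 0.054, edgeR adjusted p = 0.194). Uqcr11, a small complex III subunit, lay apart as well, at 74.4 to 83.9 against 69.2 to 73.4 CPM (-0.13, edgeR adjusted p = 0.291). Groups lay apart in this direction for 0.552% of all genes. Cox4i1 had -0.13, Cox6a1 -0.15 and Ndufb9 -0.15, with overlapping groups. DESeq2 called 1 member here, Cox4i1, and 0.179% of all genes lower.

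The difference of PS19 from WT and that of PS19/C3aR KO from C3aR KO use no library in common. Of the 92 members 62 (67.4%) were below 0 in both and 12 (13.04%) above 0 in both, against 37.3% and 35.0% of all genes. Across members the correlation of the log2 fold changes was r = 0.64, and across all genes 0.63, and genes are not independent replicates. The members' r includes the scarce isoforms Cox6b2 and Cox7a1, which lay far from the rest. In PS19 against WT the members' quartiles were -0.083 and -0.0021, and the highest value was 0.49. The correlation without these isoforms was not computed. Ndufb9 had the same value in both, -0.15, while Ndufb4 had -0.15 and 0.042. The other pair without shared libraries, C3aR KO against WT and PS19/C3aR KO against PS19, had 50 members (54.3%) above 0 in both and 13 (14.1%) below 0 in both, against 31.3% and 33.5% of all genes (r = 0.44 and 0.41).

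**Figure D5:**
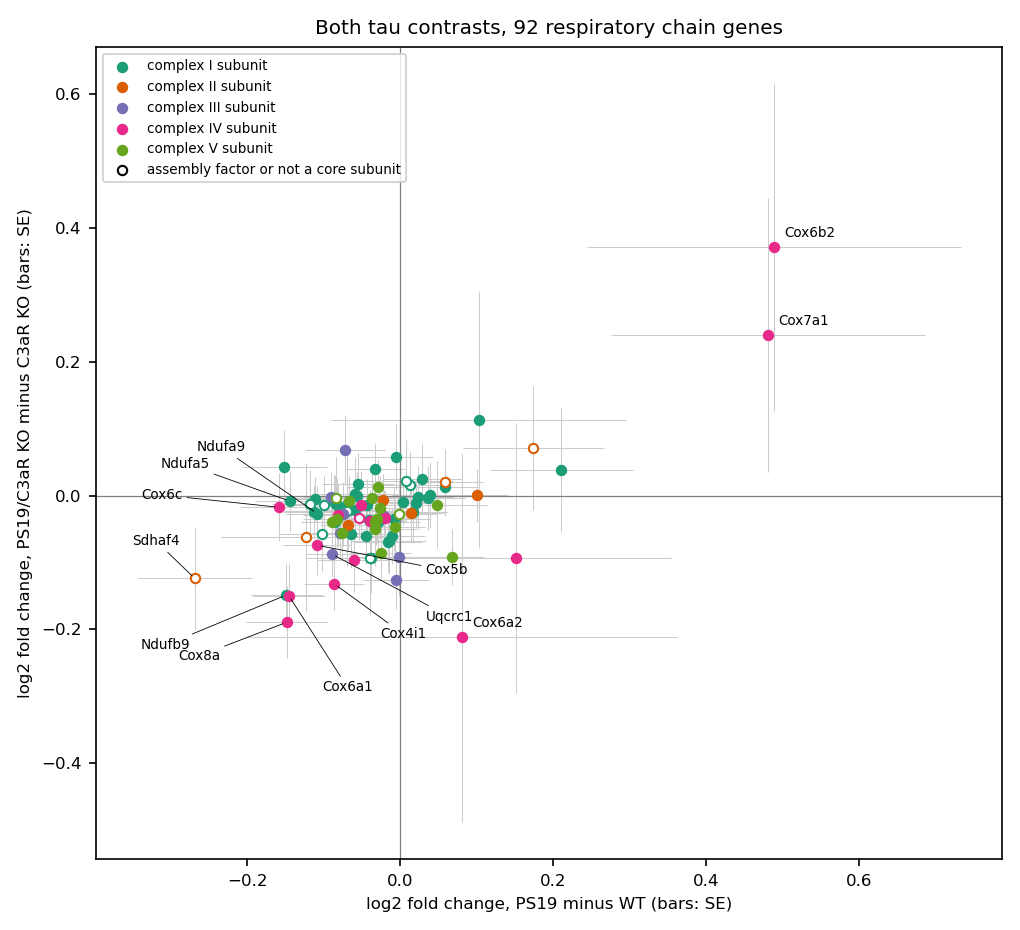
Log2 fold change of each of the 92 members in PS19 minus WT (horizontal) and PS19/C3aR KO minus C3aR KO (vertical), with SE bars and color by complex. Of the members 62 lie in the lower left, below 0 in both; Cox6b2 and Cox7a1, at the upper right, have wide error bars.

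The difference between these 2 tau effects is the interaction. No member was called, where 0.012% of all genes were called. At an unadjusted p below 0.05 there were 4 members, against 4.15% of all genes, and DESeq2 called none, with 0.014% of all genes. Among them were Atp5e at -0.16, Ndufb4 at 0.19 and Ndufa5 at 0.14, with Uqcr11 next at -0.12; each had an edgeR adjusted p of 0.9995. The members' median was 0.0034, with 42 below 0 against 50.3% of all genes. The tau effect on single members was thus not shown to differ between the backgrounds. The standard error of the interaction was 0.059 to 0.078 for these 4 genes, so a difference as large as the tau effect itself may not be detectable with 5 libraries a group.

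A test for any difference among the 4 genotypes called 8 of 92 members, against 11% of all genes, and 23 had an unadjusted p below 0.05, against 24.9%. DESeq2 called 14, against 15.4% of all genes. Among the 8 of edgeR were Cox5b (F = 9.28, edgeR adjusted p = 0.0105), Uqcrc1 (F = 8.32), Cox8a (F = 7.49), Ndufb9 (F = 7.02), Cox6a1 (F = 6.53), Ndufa9 (F = 6.15) and Cox4i1 (F = 5.78, adjusted p = 0.0499). Of these, 4 belong to complex IV. By group mean Uqcrc1 was highest in C3aR KO, at 199.6 to 205 CPM, and lowest in PS19, at 176.5 to 187. This pair was picked by its values and was not compared in a test. Cox6a1 was high in WT and C3aR KO, at 183 to 219 CPM, and low in PS19 and PS19/C3aR KO, at 166 to 196. Ndufa9 had its lowest values in PS19, at 73.8 to 85.4 CPM, against 83.6 to 94.6 over the other groups. The count was 3 without PS19 replicate 2 or PS19 replicate 3. It was 5 without WT replicate 1, WT replicate 4, WT replicate 5, C3aR KO replicate 4, PS19 replicate 5 or PS19/C3aR KO replicate 3. With the neuronal score as a covariate it was 0, with 34 of all genes called.

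Over the 20 libraries members of a complex varied together to different degrees. The median pairwise correlation of log2 CPM was r = 0.44 in complex III, 0.43 in complex IV, 0.39 in complex V, 0.29 in complex I, 0.17 among assembly factors and 0.041 among the 4 subunits of complex II. For the 10 complex IV subunits without the 4 scarce isoforms, left out after their values were seen, it was 0.64, the highest of these classes. The points share libraries, genotypes and depth, so these values are descriptions. Atp5o, the subunit that joins the stator to the ATP synthase head, followed the mean of the other members most closely (r = 0.89), and Cox6b2 ran against it (r = -0.50). Outside the members, the genes most like the members' mean were Timm8b (r = 0.83), a chaperone of mitochondrial import, 2010107E04Rik (0.83) and Usmg5 (0.82), small proteins of ATP synthase that the symbol rule did not take in, Emc4 (0.82) and Stmn3 (0.81).

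Genes of neighbouring pathways give the setting. Of 5 subunits and related genes that the symbols miss, among them Cyc1, Cycs, Usmg5 and Atpif1, none was called in PS19 against WT (1 lower at an unadjusted p below 0.05), with a median of -0.10. Of 34 assembly factors outside the symbol rule 1 fell, Ttc19 of complex III (-0.12, edgeR adjusted p = 0.0397). Among 17 genes of the citric acid cycle 1 rose, Suclg2 (0.39), and among 16 of glycolysis 1 rose, the astrocyte-enriched Aldoc (0.29). Most of both lists lay below 0, like the members: 13 of the 17 (median -0.020) and 13 of the 16 (median -0.065). At an unadjusted p below 0.05, 5 glycolysis genes and 0 citric acid cycle genes were lower, against 10.5% of all genes. Of 77 mitochondrial ribosomal proteins 2 fell, Mrps26 (-0.20) and Mrpl3 (-0.19), and 1 rose, Mrps6 (0.54). Of 23 import genes none was called by edgeR, with 1 lower and 1 higher at an unadjusted p below 0.05, and of 13 regulators of mitochondrial biogenesis none, with 2 higher. These were Ppargc1a, the coactivator that drives such genes, at 0.11 (SE 0.042, edgeR adjusted p = 0.0994), and Gabpa at 0.25 (SE 0.085, edgeR adjusted p = 0.0642). Of 77 cytosolic ribosomal proteins 2 rose, Rps9 (0.19) and Rps27l (0.36). Below 0 lay 24 of the 34 assembly factors, 49 of the 77 mitochondrial ribosomal proteins and 17 of the 23 import genes. For the cytosolic ribosomal proteins and the regulators these were 38 of 77 and 6 of 13. In PS19/C3aR KO against PS19 the single call over these lists was Rps9, which fell by 0.25 (edgeR adjusted p = 0.0315), and in the other pairwise comparisons and the interaction they had none.

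Genes of the chain are known targets of the transcription factors NRF1, YY1 and the ETS factor GABP, and the promoters show how such sites look in members that carry them. RefSeq windows on GRCm38.p6, from 250 bases before to 50 after the start, were at hand for 77 members. GCGCNTGCG, searched on both strands as the NRF1 motif, was in 27 (35.1%), against 7.12% of 27025 genes and 13% of 12420 tested genes. The YY1 letters AAGATGGCG were in 8 (10.4%, against 1.64% and 2.93%) and the ETS letters CCGGAAG in 20 (26.0%, against 9.93% and 16.7%). At least 1 of these motifs, none of which contains another, was in 45 (58.4%, against 16.6% and 28.7%). A match is a description of the sequence, not a measured binding site. Below are stretches before the start, on the gene's strand (minus for each) with the motif in capitals, for Ndufa5, which fell in PS19, for Ndufb4, which did not pass there (edgeR adjusted p = 0.0888), for Cox6a1, which carries 2 NRF1 matches and an ETS match, and for Sdha and Atp5g2, which were not called in any test. CGCANGCGC is the NRF1 motif read on the other strand, and CTTCCGG the ETS motif; overlapping matches on both strands are joined.
Ndufa5 (NRF1, chr6:24527696-24527725): gtgtgagctgCGCAGGCGCaaatctacctc
Ndufb4 (NRF1, chr16:37654539-37654568): agaagcagtgCGCACGCGCagaatacgcgg
Ndufb4 (NRF1, chr16:37654427-37654456): cttgtgcgcgCGCAGGCGCacttcctgagc
Ndufb4 (NRF1, chr16:37654370-37654399): ctcatatccgCGCAGGCGCagatgtgcgcc
Cox6a1 (NRF1, chr5:115349101-115349130): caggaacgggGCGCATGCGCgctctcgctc
Cox6a1 (NRF1, chr5:115349055-115349084): ggataaagtgCGCAGGCGCtggagttccta
Cox6a1 (ETS, chr5:115348959-115348988): cgtccccatttccgCTTCCGGcgcgccggt
Sdha (NRF1, chr13:74350318-74350347): gtttacagggCGCAGGCGCaccaccactca
Sdha (NRF1, chr13:74350275-74350304): gggcgtgttgCGCAGGCGCagaatcttcca
Atp5g2 (NRF1, chr15:102671070-102671099): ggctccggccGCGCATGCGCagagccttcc
Another NRF1 match before the start of Sdha, at chr13:74350241-74350270, is not printed here. Genes with these motifs stand among those that differed and among those that did not pass any test.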

How the data were processed

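Counts per gene were used as the authors deposited them: per the labels, 76-nt read pairs went through TopHat 2.0.9 on mm10 and then htseq-count over the exons of each gene, with no normalization. The submitters' processing notes list DESeq2 too. The annotation release and the strand setting were not given in the sources used here. The 5 summary lines of each file, such as pairs that met no gene (17.4 to 25.4% of pairs), entered neither library sizes nor tests. Groups came from the sample titles and genotype labels.

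A single edgeR 4.0.16 quasi-likelihood fit (R 4.3.3, TMM, filterByExpr with a minimum count of 10 and total of 15) to all 20 libraries with genotype as the only factor gave 6 tests over 16657 genes, among them all 92 members. A call is an adjusted p (Benjamini-Hochberg over the genes tested) below 0.05. Standard errors are the log2 fold change over the square root of F. CPM are counts scaled by the TMM library size, except in the choice of members, which used plain CPM. Transcript lengths are medians over basic protein-coding transcripts of GENCODE vM21. The fits were checked on simulated counts.

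The members, gene lists and tests were chosen with earlier results of these data known. Named were the members called in any test, up to 25 per test, or the 5 of lowest p where fewer than 5 were called; fixed isoform pairs and core subunits; the 2 genes nearest each side of the CPM limit; up to 3 called genes of each other list; and the 5 genes most like the members' mean. A member that this rule takes in is not reported here by name. The endothelial, mural and ependymal marker lists had no call in any test, the inhibitory neuron list had 1, Sst in the test among the 4 genotypes (edgeR adjusted p = 0.0426), and of the 7 excitatory neuron markers Slc17a7 (-0.30) and Grin1 (-0.16) fell in PS19 against WT. Alternatives were DESeq2 1.42.0, its size factors, no low-count filter, a replicate block, 3 covariates and leaving out each library.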

Additional observations from a re-analysis of the deposited data

Results flagged for a closer look

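Among 100 groups of 5 libraries examined (25 named members and class scores in 4 genotypes), 3 held a library whose distance to its neighbour was more than 0.71 of the group's range; chance alone gives about 1 in 20. The complex IV score without its 4 scarce isoforms was -0.030 in PS19 replicate 1 against -0.114 to -0.091 in the other PS19 libraries (0.727 of the range). Sdhaf4 measured 12.4 CPM in PS19 replicate 1 and 9.38 to 10.2 CPM in the others (0.716 of the range), and without that library its fall against WT was 0.35 on the log2 scale. Cox7a2l measured 107 CPM in C3aR KO replicate 1 and 111 to 113 CPM in the others (0.722 of the range).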

How the results depend on the processing

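DESeq2 gave more calls: 9 members in PS19 minus WT, among them the 5 of edgeR, 6 in PS19/C3aR KO minus PS19, 1 in PS19/C3aR KO minus C3aR KO and 14 in the test among the 4 genotypes, against 5, 0, 0 and 8 by edgeR. Without the low-count filter 1 member was called in PS19 minus WT. A covariate for the Rn45s share gave counts of 0 in PS19 minus WT, and 5 among the 4 genotypes. With the neuronal score they were 0 and 0, with 3 and 11 members at an unadjusted p below 0.05; this score does not overlap between PS19 and WT. The causes were not tested. Leaving out 1 library gave 0 to 6 calls in PS19 minus WT, 0 to 1 in PS19/C3aR KO minus PS19 and 3 to 8 among the 4 genotypes, and 0 in the other 3 tests. With DESeq2's size factors or the choroid plexus score, counts stayed within 1.5 times. Over all alternatives, named members kept their direction, but lost their call in 145 values and gained one in 7. In 739 values the call status was unchanged, which includes members that were not called in the main fit.

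With the replicate number as a block 2 members were called in PS19 minus WT and 7 among the 4 genotypes. The numbers share no stated origin: correlations of same-numbered libraries ran from -0.27 to 0.55 (median 0.14), with 16 of 30 above 0.1, against a median of -0.042 and 36 of 120 for other pairs. Calls near the threshold, such as Cox6c, depend on these choices, and 5 libraries a group limit every count.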
